A study of Homo sapiens with 12 samples.

Results

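The integrin subunits that bind collagens or laminins were followed in pancreatic cancer cells after knockdown of FAK, the focal adhesion kinase encoded by PTK2. They were taken as every array probe annotated to ITGB1, ITGB4, ITGA1, ITGA2, ITGA3, ITGA6, ITGA7, ITGA10 or ITGA11, which gave 21 of 47228 probes for 9 genes. Of these, 17 were among the 24207 probes that passed a detection filter and were tested, and the other 4, of ITGB1, ITGB4, ITGA6 and ITGA11, are described by their levels only. RNA came from MIA PaCa-2 and Capan-1, established human lines of pancreatic ductal adenocarcinoma (PDAC), and was hybridized to HumanHT-12 v4 bead arrays of Illumina. Cells of both lines held a PLKO.1 tet-on vector, induced by doxycycline and selected with puromycin, which carried a scrambled control hairpin (shCtrl) or a hairpin against FAK, sh1209 or sh1319. In the Capan-1 labels the latter reads shFAK1319, and both spellings were taken as 1 hairpin. All groups, controls included, were kept for 96 hours in doxycycline at 50 ng/ml, and puromycin was given at 3.5 ug/ml to MIA PaCa-2 cells and at 1.5 ug/ml to Capan-1 cells. Each of the 6 groups had 2 arrays, and where these are not from separate cultures, which the labels do not say, the p-values measure only the spread between these arrays. No untransduced or uninduced group was analysed here.

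Integrins are cell surface receptors built from an α and a β subunit, which together decide the ligand that is bound. β1 (ITGB1) joins α1, α2, α10 or α11 to form the collagen receptors, and joins α3, α6 or α7 to form laminin receptors. α6 also pairs with β4 (ITGB4), the subunit that anchors epithelial cells to laminin in hemidesmosomes. Ligand-bound β1 integrins gather FAK at their cytoplasmic side, and in PDAC, a tumor with a dense collagen-rich stroma, this is a route by which matrix signals reach the tumor cell.

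Promoters are shown for ITGB1, the subunit common to the collagen receptors, and for ITGA2 and ITGA6, the α subunits whose probes differed most between the cell lines. Each is the 250 bases before a RefSeq transcription start on GRCh38.p14, written on the strand of the gene. The RefSeq table had windows for 6 of the 9 members, 8 windows in all, and for ITGB1 and ITGA6, which have more than 1, the farthest upstream is printed. Capitals mark matches on either strand to GGGCGG, the core of the GC box, or to TATAAA, the TATA box. No match in a printed window overlapped another.
ITGB1, chr10:32958231-32958480, minus strand: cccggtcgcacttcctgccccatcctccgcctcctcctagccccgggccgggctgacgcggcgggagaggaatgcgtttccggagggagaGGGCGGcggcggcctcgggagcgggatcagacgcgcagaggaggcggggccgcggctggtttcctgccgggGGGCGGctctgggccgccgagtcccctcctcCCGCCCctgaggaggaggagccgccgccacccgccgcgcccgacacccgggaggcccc
ITGA2, chr5:52989102-52989351, plus strand: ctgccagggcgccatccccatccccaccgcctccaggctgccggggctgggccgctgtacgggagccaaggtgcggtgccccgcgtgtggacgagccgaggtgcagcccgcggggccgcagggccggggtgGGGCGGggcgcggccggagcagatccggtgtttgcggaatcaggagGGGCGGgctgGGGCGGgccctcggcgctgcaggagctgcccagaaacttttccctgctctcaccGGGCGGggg
ITGA6, chr2:172427086-172427335, plus strand: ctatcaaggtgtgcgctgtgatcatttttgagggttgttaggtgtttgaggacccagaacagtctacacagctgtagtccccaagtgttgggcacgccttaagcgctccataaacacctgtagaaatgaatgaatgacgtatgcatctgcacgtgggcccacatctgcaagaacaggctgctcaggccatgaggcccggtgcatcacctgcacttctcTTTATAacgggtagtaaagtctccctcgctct
The ITGB1 window was 78.4% G and C with 3 matches to GGGCGG, and the ITGA2 window was 76.4% G and C with 4. The ITGA6 window, 50.8% G and C, had no GGGCGG and 1 TATAAA, read on the opposite strand. The windows not printed were the reverse. That of ITGA6 was 71.6% G and C with 3 matches to GGGCGG and none to TATAAA. That of ITGB1 was 41.6% G and C with none to GGGCGG and 3 to TATAAA. Among 35116 windows of the same length, 42.6% held GGGCGG, 10.7% held TATAAA and 6.6% held TGANTCA, the AP-1 element, which none of the 8 integrin windows held. These matches describe the letters of the windows.

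Probe values are given as normalized log2 intensity, after background correction and quantile normalization, and a difference of 1 on this scale is a doubling. A probe counted as detected on an array at a detection p under 0.05. A change is the difference between 2 group means on the log2 scale, with its standard error (SE) from limma over all 12 arrays, and passed the threshold at a Benjamini-Hochberg adjusted p under 0.05 over all 24207 probes. The correction adds an offset, so that changes of dim probes are understated. Median intensity was 87.7 to 97.0 per array, and the number of detected probes was 16259 to 17451 in MIA PaCa-2, while Capan-1 had 17898 to 19814. At PTK2 probe 450253, FAK transcript changed in MIA PaCa-2 by -2.24 (sh1209) and -2.48 (sh1319), and the Capan-1 changes were -0.61 and -1.78, so that sh1209 in Capan-1 had the smallest reduction (limma, adjusted p = 0.00362 for that pair, lost with median scaling at -0.42). The other tested PTK2 probe, 2680750, passed in none of the 4 pairs, with changes of -0.46 to 0.31. As RNA was taken from whole cultures, fewer cells expressing a gene and less RNA of it per cell cannot be told apart.

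With a FAK hairpin, 11.8% to 23.5% of the 17 integrin probes passed the threshold, beside 13.7% to 24.3% of all tested probes. ITGB4 probe 3940132 rose with both hairpins in MIA PaCa-2 and ITGA3 fell with sh1209 in MIA PaCa-2, and these 3 calls passed under every alternative tried other than a per-probe Student test, which called no hairpin change at any integrin probe. ITGA1 rose with sh1209 in Capan-1 and passed wherever it was tested other than by that test, but the stricter detection filter left it out. In the other 6, leaving out an array or changing the scaling ended the call. ITGA1 and ITGB4 probe 4490367 were each detected on 2 arrays, those of the group in which they were highest, and so met the detection filter through that group alone. Against shCtrl in MIA PaCa-2, 4 of the 17 integrin probes passed the threshold with sh1209, 2 higher and 2 lower, where 18.0% of all tested probes did. With sh1319 in MIA PaCa-2, 2 passed, both of ITGB4, 1 higher and 1 lower, against 24.3% of all probes. In Capan-1, 2 rose with sh1209, against 16.8% of all probes, and with sh1319 1 rose and 1 fell, against 13.7%. As a share of the 17 this was 23.5% for sh1209 in MIA PaCa-2 and 11.8% in each of the other 3 pairs. The median change of the 17 probes was -0.00 and 0.08 in MIA PaCa-2, while in Capan-1 it was 0.13 and -0.04 (sh1209 and sh1319, respectively), beside 0.01, -0.01, -0.01 and -0.00 over all tested probes. Both hairpins of a cell line were compared with the same 2 shCtrl arrays, so their changes are not independent of each other.

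**Figure D1:**
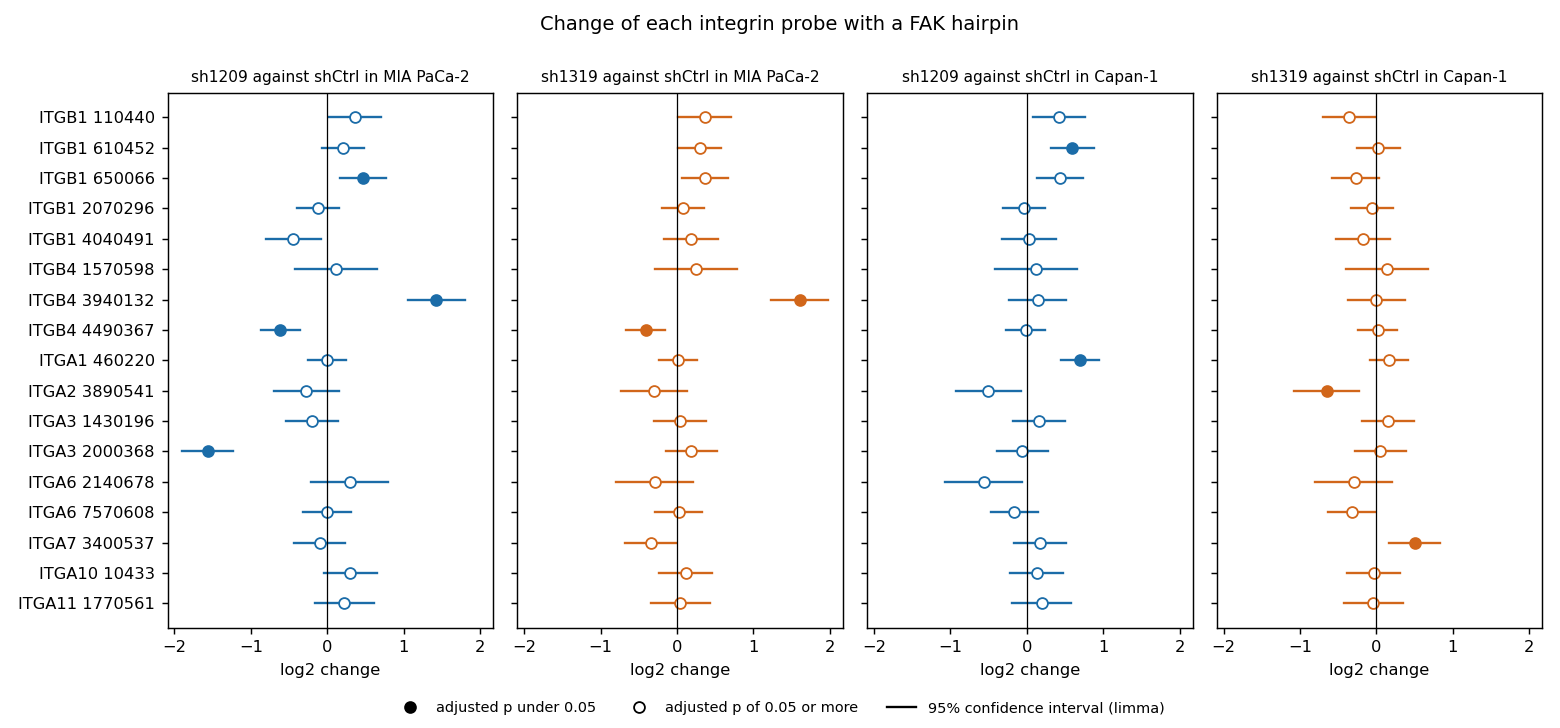
Log2 change of each of the 17 tested integrin probes with a FAK hairpin against shCtrl of the same cell line, as points with 95% confidence intervals from limma, filled where the adjusted p was under 0.05. ITGB4 3940132 lies at 1.43 and 1.61 in MIA PaCa-2 but near 0 in Capan-1, ITGA3 2000368 lies at -1.56 only with sh1209 in MIA PaCa-2, and most other intervals reach 0.

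The cell lines differed far more. In control cells 12 of the 17 integrin probes, for 7 of the 9 genes, differed between MIA PaCa-2 and Capan-1, 7 higher and 5 lower in MIA PaCa-2, where 42.1% of all tested probes differed. The median size of the difference was 0.68 over the integrin probes and 0.33 over all probes. ITGB1 probe 4040491, ITGA6 probe 7570608 and ITGB4 probe 4490367 were detected in a single line and met the detection filter through it. A difference between the lines at these probes was thus favoured by the filter. ITGB1 was higher in MIA PaCa-2, whereas ITGA2, ITGA3 and ITGA6 were lower. Lines also differed in markers of cell type. Capan-1 had all 6 epithelial markers on all 6 arrays. MIA PaCa-2 lacked CDH1 (E-cadherin) on every array and had EPCAM and KRT7 on 2 arrays each, KRT19 on 4, and KRT8 and KRT18 on all 6. Between control cells KRT8 and KRT18 differed by -0.25 and -0.21, MIA PaCa-2 minus Capan-1. The summed level of the list was 13.2 to 13.7 in Capan-1 and 9.81 to 10.9 in MIA PaCa-2. Summed mesenchymal markers were at 13.1 to 13.4 in MIA PaCa-2, carried by VIM (vimentin), and at 7.21 to 8.03 in Capan-1. Of the other 3 mesenchymal markers, CDH2 was detected only in Capan-1, FN1 on 2 MIA PaCa-2 arrays and ZEB1 on none. Leukocyte markers summed to 8.14 to 8.93 in MIA PaCa-2 and 9.17 to 9.50 in Capan-1, with CD68 as the one gene on all arrays, and endothelial markers to 6.28 to 6.43 and 6.31 to 6.78. The part of these markers in the integrin differences was not tested, nor was that of the greater number of probes detected in Capan-1.

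**Figure D2:**
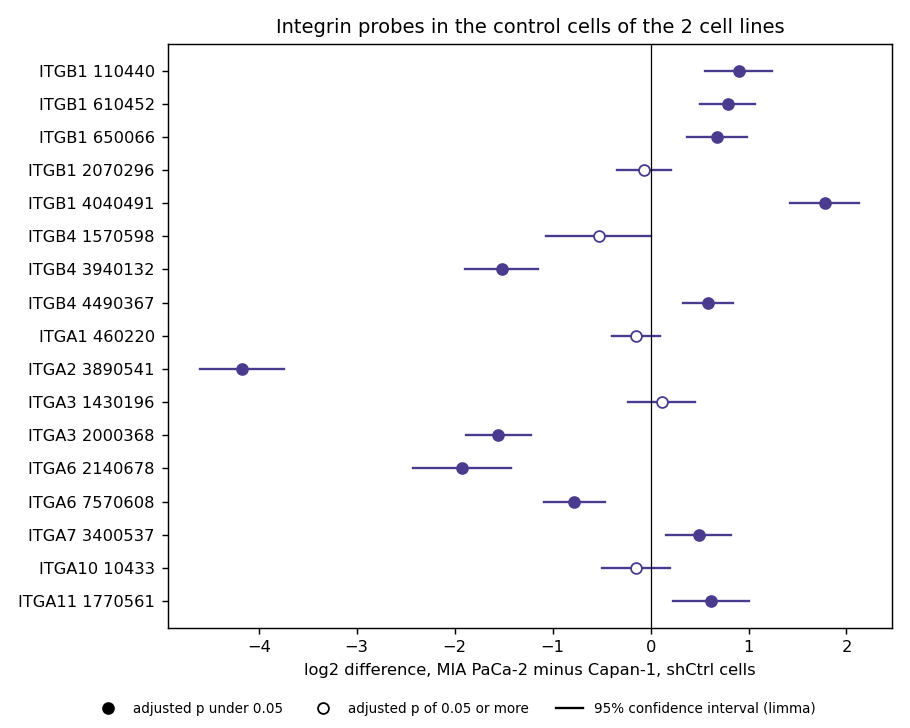
Difference of each tested integrin probe between control cells of the 2 lines, MIA PaCa-2 minus Capan-1 on the log2 scale, with 95% confidence intervals from limma and filled points where the adjusted p was under 0.05. ITGA2 stands apart at -4.17, and 4 ITGB1 probes lie between 0.68 and 1.78.

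Of the β subunits, ITGB1, the chain common to the collagen receptors, was detected on all 12 arrays at 3 of its 6 probes. Probe 610452 read 12.14 and 11.99 with shCtrl, 12.34 and 12.20 with sh1209 and 12.25 and 12.47 with sh1319 in MIA PaCa-2. In Capan-1 it read 11.19 and 11.36 with shCtrl, 11.90 and 11.84 with sh1209 and 11.25 and 11.35 with sh1319. All MIA PaCa-2 arrays were thus above all Capan-1 arrays, and within Capan-1 both sh1209 arrays were above the other 4. In control cells these 3 probes were higher in MIA PaCa-2 by 0.79 ± 0.13 (SE, probe 610452; limma, adjusted p = 0.000314), 0.90 ± 0.16 (SE, probe 110440; limma, adjusted p = 0.000538) and 0.68 ± 0.14 (SE, probe 650066; limma, adjusted p = 0.00179), which is 1.60 to 1.86-fold.

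With sh1209 in Capan-1, ITGB1 probe 610452 rose by 0.59 ± 0.13 (SE; limma, adjusted p = 0.00823). Probes 110440 and 650066 had changes of 0.43 (limma, adjusted p = 0.0899) and 0.43 (limma, adjusted p = 0.0540), neither past the threshold, though both passed without background correction. Under sh1319 in Capan-1 the changes were 0.02, -0.36 and -0.27 for 610452, 110440 and 650066, none past the threshold, though the -0.32 of 110440 passed without background correction. The 2 hairpins stood apart in Capan-1, where 4 integrin probes were higher with sh1209 than with sh1319 and 11.3% of all probes differed. These 3 ITGB1 probes were among the 4, with differences of 0.79 ± 0.16 (SE, 110440; limma, adjusted p = 0.00748), 0.71 ± 0.14 (SE, 650066; limma, adjusted p = 0.00705) and 0.57 ± 0.13 (SE, 610452; limma, adjusted p = 0.0146). These rest on few arrays. The rise of 610452 was 0.50 and 0.57 and no longer passed without Capan-1 shCtrl replicate 1 or sh1209 replicate 1. The hairpin differences no longer passed without Capan-1 sh1209 replicate 1 (0.67, 0.68 and 0.54 for 110440, 650066 and 610452) or sh1319 replicate 1 (0.71, 0.60 and 0.52), and that of 610452 also without sh1209 replicate 2 (0.60). With median scaling those of 650066 (0.65) and 610452 (0.51) did not pass. PTK2 was higher with sh1209 than with sh1319 in Capan-1 by 1.16 at probe 450253 and differed by -0.00 at probe 2680750 (limma, adjusted p = 1), and the part of this in the ITGB1 difference was not tested.

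In MIA PaCa-2, ITGB1 probe 650066 read 10.91 and 10.89 with shCtrl, 11.49 and 11.24 with sh1209 and 11.12 and 11.41 with sh1319. Every FAK hairpin array was above both shCtrl arrays. The change was 0.47 ± 0.14 with sh1209 (SE; limma, adjusted p = 0.0369) and 0.37 ± 0.14 with sh1319 (SE; limma, adjusted p = 0.0791). Probes 110440 and 610452 changed in the same direction without passing, by 0.36 and 0.21 with sh1209 and by 0.36 and 0.30 with sh1319, and all 3 passed with sh1319 when the background was not corrected. The call of 650066 with sh1209 was lost with median scaling (0.43), in a fit of MIA PaCa-2 alone (0.49), and without MIA PaCa-2 shCtrl replicate 1 (0.47), shCtrl replicate 2 (0.46) or sh1209 replicate 1 (0.34), or without Capan-1 sh1209 replicate 1 (0.47) or shCtrl replicate 2 (0.47).

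The other ITGB1 probes did not follow these 3. Across the 12 arrays, after each cell line was centred on its mean, probes 110440 and 650066 correlated at 0.966, 610452 at 0.812 and 0.860 with them, and probe 4040491 at 0.04, 0.01 and -0.12 with 110440, 610452 and 650066. Probe 4040491 was detected only in MIA PaCa-2, at 6.12 and 6.24 with shCtrl, 5.49 and 5.98 with sh1209 and 6.50 and 6.23 with sh1319. Control cells of MIA PaCa-2 exceeded those of Capan-1 at this probe by at least 2.99-fold (limma, adjusted p = 2.84e-06). Such a bound sets the mean of the brighter group against the lowest normalized signal of a detected probe on each array of the other. Without background correction the difference was 0.68 and passed. In MIA PaCa-2 it was lower with sh1209 than with sh1319 by 0.63 ± 0.16 (SE; limma, adjusted p = 0.0153), and this was lost without that line's sh1209 replicate 1 (-0.39) or its sh1319 replicate 1 (-0.50). ITGB1 probe 2070296 was detected on 3 arrays and 5910139 on none, between 4.11 and 4.67 together.

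**Figure D3:**
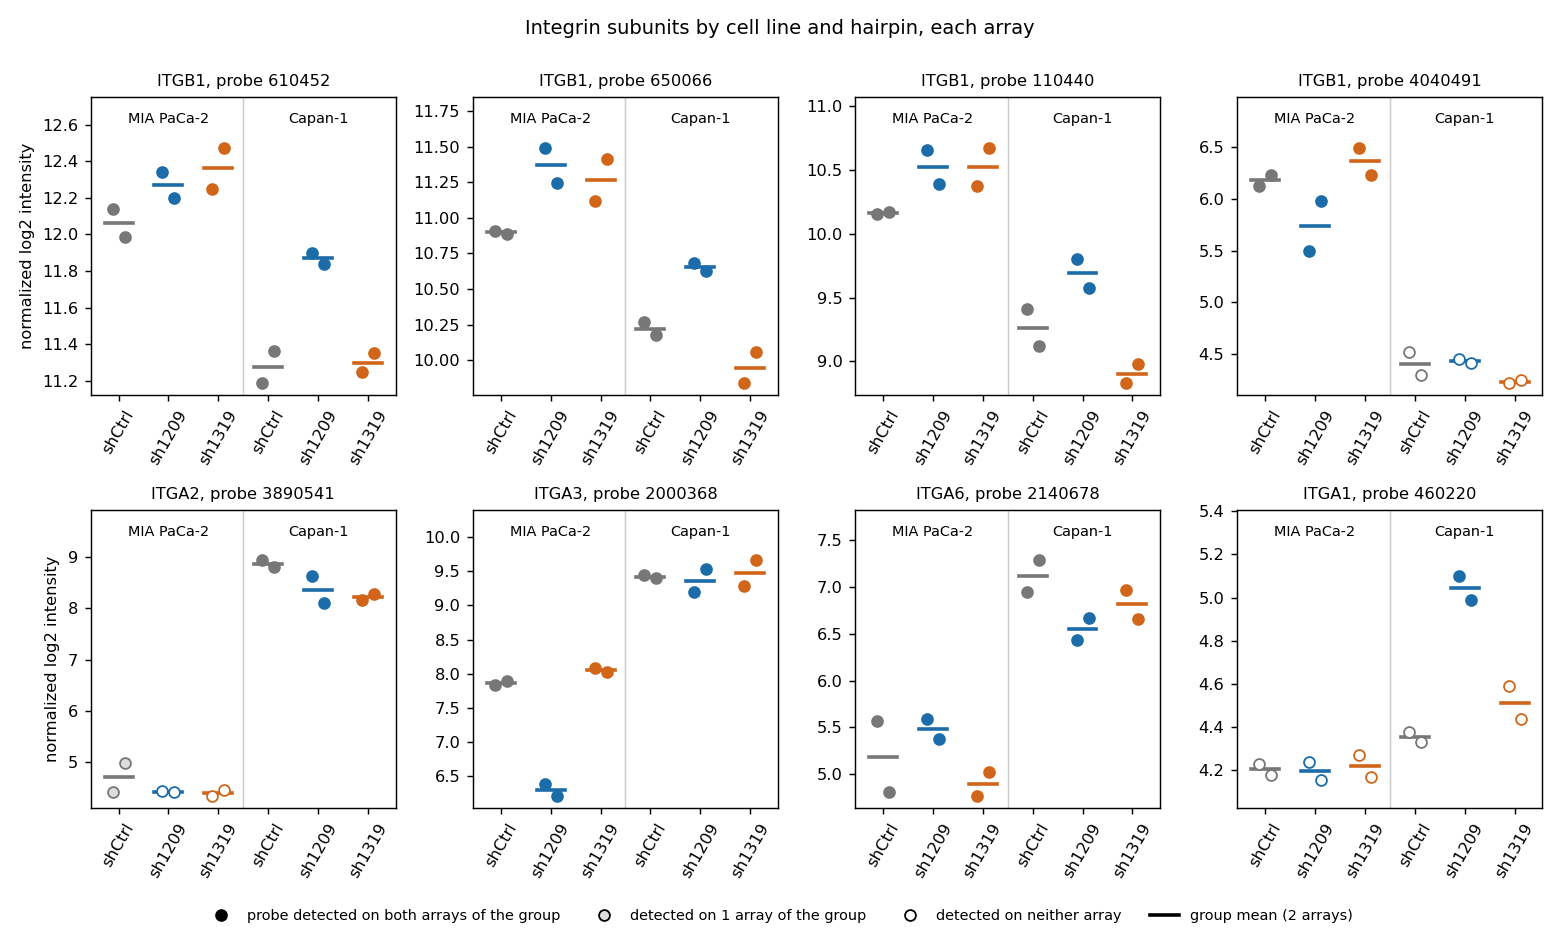
Normalized log2 intensity of 4 ITGB1 probes and of probes for ITGA2, ITGA3, ITGA6 and ITGA1 on each array, by hairpin within MIA PaCa-2 (left) and Capan-1 (right), with a bar at the mean of the 2 arrays. The y axis differs between panels and does not start at 0, and open points mark groups in which the probe was detected on neither array. ITGA3 is low only with sh1209 in MIA PaCa-2, and ITGA1 is detected only with sh1209 in Capan-1.

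ITGB4 gave the change that both hairpins shared in MIA PaCa-2. Probe 3940132 was not detected in MIA PaCa-2 with shCtrl, at 4.38 and 4.22, and read 5.69 and 5.76 with sh1209 and 5.88 and 5.93 with sh1319. In Capan-1 it was detected on all arrays, at 5.84 and 5.79 with shCtrl, 5.74 and 6.18 with sh1209 and 5.59 and 6.04 with sh1319. MIA PaCa-2 cells with a FAK hairpin were therefore within the range of Capan-1, and only the MIA PaCa-2 controls lay apart. The rise in MIA PaCa-2 was 1.43 ± 0.17 with sh1209 (SE; limma, adjusted p = 0.000149), at least 2.03-fold, and 1.61 ± 0.17 with sh1319 (SE; limma, adjusted p = 3.55e-05), at least 2.29-fold. In Capan-1 the changes were 0.14 (95% interval -0.23 to 0.52) and -0.00 (-0.38 to 0.37). MIA PaCa-2 controls were at least 2.16-fold lower than Capan-1 controls (limma, adjusted p = 1.59e-05). These 3 calls use the same 2 MIA PaCa-2 control arrays. With each array left out in turn the rises were 1.38 to 1.52 with sh1209 and 1.56 to 1.70 with sh1319. Without background correction they were 0.53 and 0.60, and the difference between control cells was -0.57 in place of -1.52, all past the threshold.

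**Figure D4:**
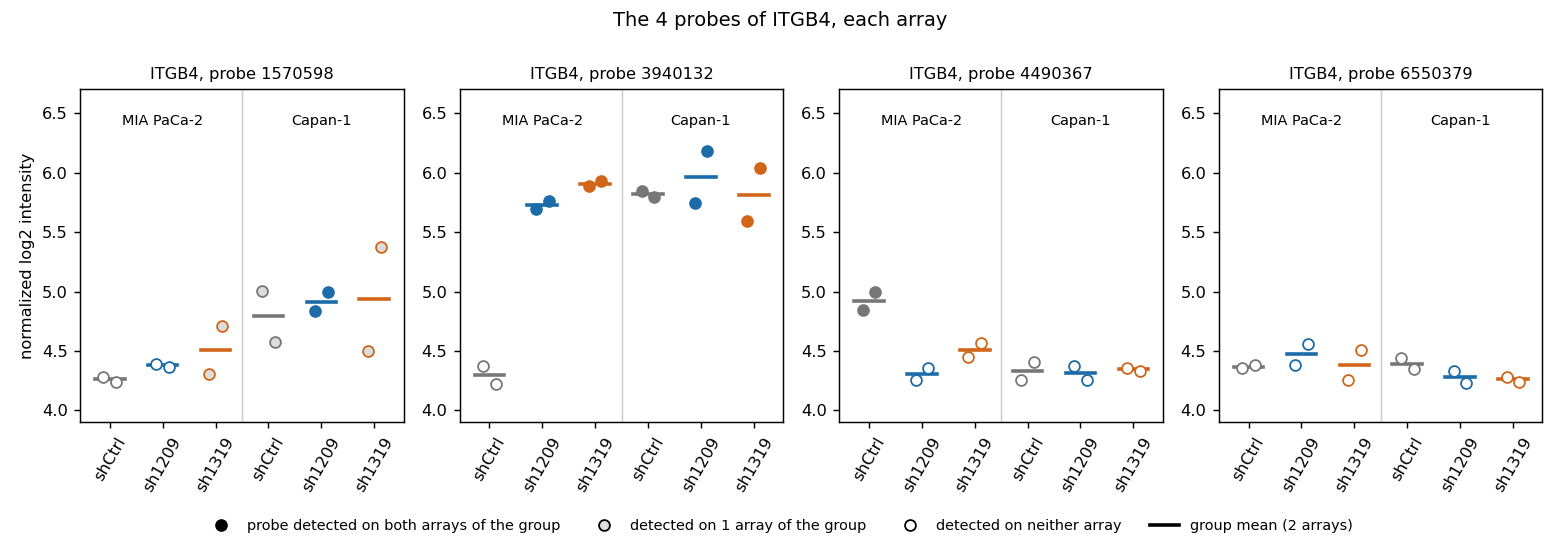
Normalized log2 intensity of the 4 ITGB4 probes on each array, by hairpin within each cell line, with a bar at the mean of 2 arrays and open points where the probe was detected on neither array of the group. The y axis is shared and does not start at 0. Probe 3940132 is at 4.22 and 4.38 only in MIA PaCa-2 control cells, where probe 4490367 has its highest values.

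Other ITGB4 probes did not repeat this. Probe 4490367 was detected only in MIA PaCa-2 control cells, at 4.84 and 4.99, and read 4.26 and 4.35 with sh1209 and 4.45 and 4.57 with sh1319. It thus moved against probe 3940132, with a correlation of -0.868 across the 12 arrays within cell lines, and all its values were near the lowest signals of detected probes, which were 4.55 to 4.74 over the arrays. It was at least 1.19-fold lower with sh1209 (limma, adjusted p = 0.00369) and at least 1.16-fold lower with sh1319 (limma, adjusted p = 0.0247). As the probe met the detection filter only through the 2 control arrays of MIA PaCa-2, a fall from that group was favoured by the filter. The correlation has the same limit, as probe 3940132 was not detected on those 2 arrays and probe 4490367 was detected on no others. With median scaling neither passed (-0.49 and -0.31), and the fall with sh1319 also failed without background correction (-0.13), in a fit of MIA PaCa-2 alone (-0.33) and without MIA PaCa-2 sh1319 replicate 1 (-0.36) or shCtrl replicate 2 (-0.34). Control cells of MIA PaCa-2 exceeded those of Capan-1 here by at least 1.25-fold (limma, adjusted p = 0.00155), which median scaling also ended (0.48). Probe 1570598 was detected on 4 Capan-1 arrays and 1 MIA PaCa-2 array, from 4.24 to 5.37, and passed in no comparison. Probe 6550379 was detected on no array. The files do not pair the probes with transcripts or positions, so which ITGB4 transcripts each probe reads is not given here.

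Among the α subunits of the collagen receptors, ITGA2, which with β1 forms the main collagen receptor of epithelial cells, had the largest difference between the lines. In Capan-1 it read 8.94 and 8.81 with shCtrl, 8.63 and 8.11 with sh1209 and 8.15 and 8.28 with sh1319. In MIA PaCa-2 it was detected on 1 of the 6 arrays, shCtrl replicate 2 at 4.98, and lay between 4.34 and 4.46 on the other 5. Every Capan-1 array was far above every MIA PaCa-2 array, and the controls differed by 4.17 ± 0.19 on the log2 scale (SE), 18.0-fold higher in Capan-1 (limma, adjusted p = 6.7e-09). The fold is set against MIA PaCa-2 controls in which the probe was detected on 1 of 2 arrays, so its size is uncertain. Without background correction this was -2.47.

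All FAK hairpin arrays of Capan-1 lay below both control arrays at ITGA2. The change was -0.65 ± 0.19 with sh1319 (SE; limma, adjusted p = 0.0459), to 63.6% of the control signal, and -0.50 ± 0.19 with sh1209 (SE; limma, adjusted p = 0.107). The 2 hairpins differed by 0.15 (95% interval -0.28 to 0.58). The call with sh1319 was close to the threshold. It was lost without any 1 of the 4 arrays compared (-0.72 to -0.59) or of the 4 MIA PaCa-2 arrays with sh1209 or sh1319 (-0.65 each), with median scaling (-0.42), without the detection filter, with the replicate number as a block (limma, adjusted p = 0.0628) and in a fit of Capan-1 alone (-0.60). With sh1209 the change passed without Capan-1 sh1209 replicate 1 (-0.77) and without background correction (-0.42).

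ITGA1, the α1 collagen receptor subunit, was detected on 2 arrays, both of Capan-1 with sh1209. It read 5.10 and 4.99 there, against 4.38 and 4.33 with shCtrl and 4.59 and 4.44 with sh1319, and 4.15 to 4.27 in MIA PaCa-2. This was at least 1.36-fold above shCtrl (change 0.69 ± 0.11, SE; limma, adjusted p = 0.00164) and at least 1.37-fold above sh1319 (0.53 ± 0.11, SE; limma, adjusted p = 0.0107). The first passed with each array left out in turn (0.63 to 0.72) and, at 0.23, without background correction. The second did not pass without Capan-1 sh1209 replicate 1 (0.47) or sh1319 replicate 2 (0.44), or without background correction (0.17). As the probe met the detection filter only through the 2 sh1209 arrays, a probe with this pattern had to differ to be tested. Of the hairpins, sh1209 was the one that left more PTK2 transcript in that line at probe 450253, while probe 2680750 differed by -0.00. The part of PTK2 in the ITGA1 difference was not tested.

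ITGA10 and ITGA11, collagen receptor subunits known from cartilage and from fibroblasts, were near background. ITGA10 was detected on 3 of 12 arrays, from 4.28 to 4.83, and passed in no comparison. ITGA11 probe 1770561 was detected on all MIA PaCa-2 arrays, from 4.93 to 5.54, and on 3 of 6 in Capan-1, from 4.38 to 4.76. Lines did not overlap, and with shCtrl MIA PaCa-2 exceeded Capan-1 by at least 1.47-fold (limma, adjusted p = 0.0141), although not with median scaling (0.45) or without MIA PaCa-2 shCtrl replicate 2 (0.39) or Capan-1 shCtrl replicate 2 (0.56), and 0.20 without background correction. No hairpin changed it, and the second ITGA11 probe was detected nowhere. Fibroblast markers DCN, LUM and PDGFRB were not detected in MIA PaCa-2, and COL3A1 was detected there on 4 arrays only, from 4.28 to 7.81 over all 6.

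Of the laminin-binding α subunits, ITGA3, whose product with β1 binds the laminins of epithelial basement membranes, gave the largest fall. Probe 2000368 read 7.83 and 7.89 with shCtrl and 8.08 and 8.02 with sh1319 in MIA PaCa-2, but 6.38 and 6.21 with sh1209. In Capan-1 it read 9.44 and 9.40 with shCtrl, 9.20 and 9.53 with sh1209 and 9.28 and 9.66 with sh1319. The sh1209 arrays of MIA PaCa-2 were the lowest of all 12, and the 3 Capan-1 groups overlapped. The fall with sh1209 was 1.56 ± 0.15 (SE), 2.96-fold (limma, adjusted p = 2.9e-05), whereas sh1319 gave 0.19 (95% interval -0.14 to 0.52). The hairpins differed by 1.75 ± 0.15 (SE; limma, adjusted p = 8.47e-06), 1 of 2 integrin probes that differed between them in MIA PaCa-2, both lower with sh1209, where 22.6% of all probes differed. PTK2 differed between these hairpins by 0.24 at probe 450253 (limma, adjusted p = 0.173) and by 0.59, higher with sh1209, at probe 2680750 (limma, adjusted p = 0.0210). The latter was lost without background correction (0.19), with median scaling (0.49), in a fit of that line (0.49) and without MIA PaCa-2 sh1209 replicate 1 (0.49) or sh1319 replicate 2 (0.37). The part of PTK2 in the ITGA3 difference was not tested.

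The fall of ITGA3 passed without each single array (-1.65 to -1.47) and was -1.01 without background correction, where the difference between hairpins was -1.16. Control cells of MIA PaCa-2 were 2.94-fold lower than those of Capan-1 at this probe (limma, adjusted p = 4.83e-06). The other ITGA3 probe, 1430196, was detected on 2 arrays, from 4.23 to 4.74, and passed in no comparison, so the fall rests on 1 probe.

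ITGA6, the α6 chain shared by β1 and β4, was detected on all 12 arrays at probe 2140678. It read 6.94 and 7.28 with shCtrl, 6.43 and 6.67 with sh1209 and 6.97 and 6.66 with sh1319 in Capan-1. The same groups of MIA PaCa-2 read 5.57 and 4.81, 5.59 and 5.38, and 4.77 and 5.03. Capan-1 was higher on every array, and its controls exceeded those of MIA PaCa-2 by 1.92 ± 0.23 (SE), 3.79-fold (limma, adjusted p = 2.69e-05), or 0.95 without background correction. The second tested probe, 7570608, was detected on 5 Capan-1 arrays and on no MIA PaCa-2 array, at least 1.25-fold higher in Capan-1 controls (limma, adjusted p = 0.000755). No change with a hairpin passed at either probe. At 2140678 these were 0.29 and -0.29 in MIA PaCa-2, while Capan-1 gave -0.56 and -0.30 for sh1209 and sh1319. Without MIA PaCa-2 shCtrl replicate 2 the change with sh1319 in that line was -0.69 and passed, and without either control replicate of MIA PaCa-2 the change with sh1209 in Capan-1 passed at -0.56, as it did without background correction (-0.34).

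ITGA7, the α7 laminin receptor subunit best known from muscle, stayed near background. It read 5.04 and 4.73 with shCtrl, 4.77 and 4.79 with sh1209 and 4.70 and 4.37 with sh1319 in MIA PaCa-2. The same groups of Capan-1 read 4.35 and 4.44, 4.57 and 4.56, and 5.04 and 4.75. With sh1319 in Capan-1 it was at least 1.23-fold higher than with shCtrl (0.50 ± 0.15, SE; limma, adjusted p = 0.0495), and MIA PaCa-2 controls were at least 1.22-fold above Capan-1 controls (0.49 ± 0.15, SE; limma, adjusted p = 0.0214). Neither is firm. The first was lost without any 1 Capan-1 array or either MIA PaCa-2 sh1209 array (0.36 to 0.62), without background correction (0.17) and without the filter, and the second without background correction (0.17), with median scaling (0.40) and without MIA PaCa-2 shCtrl replicate 1 (0.34) or Capan-1 shCtrl replicate 1 (0.45) or 2 (0.53). The muscle markers DES, MYOD1 and MYOG were detected on at most 2 arrays of a line.

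Whether the lines responded differently was tested as the mean change of both hairpins in MIA PaCa-2 minus that in Capan-1. PTK2 itself differed in this way by -1.17 at probe 450253 (limma, adjusted p = 0.000213) and by 0.47 at probe 2680750 (limma, adjusted p = 0.152). The knockdown at probe 450253 was thus deeper in MIA PaCa-2, and its part in the integrin differences was not tested. The difference between lines passed for 3 integrin probes, against 14.4% of all probes. ITGB4 probe 3940132 changed by 1.52 in MIA PaCa-2 but by 0.07 in Capan-1, a difference of 1.45 ± 0.21 (SE; limma, adjusted p = 0.000792). ITGA3 probe 2000368 differed by -0.68 ± 0.19 (SE; limma, adjusted p = 0.0299) and ITGB4 probe 4490367 by -0.51 ± 0.14 (SE; limma, adjusted p = 0.0355). For ITGA3 the mean of -0.69 in MIA PaCa-2 joins -1.56 and 0.19, and so describes neither hairpin. The ITGA3 difference was lost with median scaling (-0.78) and without MIA PaCa-2 shCtrl replicate 1 or 2, sh1209 replicate 2 or sh1319 replicate 2 or Capan-1 shCtrl replicate 1 or 2 or sh1209 replicate 2 (-0.71 to -0.60), and that of ITGB4 probe 4490367 with median scaling (-0.38), without background correction (-0.18) and without any 1 array other than MIA PaCa-2 shCtrl replicate 1, sh1209 replicate 2 or sh1319 replicate 2 (-0.59 to -0.44). For ITGB1 probes 110440, 610452 and 650066 the differences were 0.33, -0.06 and 0.34, and for ITGA2 0.29, none past the threshold. That of ITGA2 passed without background correction (0.39). The ITGA1 difference, -0.42, did not pass in the main fit but did without the detection filter and by the per-probe Student test. For ITGA7 it was -0.56 and did not pass, and was -0.65 without MIA PaCa-2 sh1319 replicate 1 and -0.73 without shCtrl replicate 2 of that line.

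The ligands, activators and partners of these receptors were read from 8 lists with 91 genes, of which 79 had a tested probe, 125 probes in all. Of the collagen chains, 6 of 11 probes were higher in MIA PaCa-2 with each hairpin, with a median of 0.57 and 0.72. This stands beside 18.0% and 24.3% of all probes past the threshold in either direction. In Capan-1, 1 (sh1209) and 2 (sh1319) of 11 were higher, beside 16.8% and 13.7% of all probes. No collagen probe was lower in any pair by limma, adjusted or at an unadjusted p under 0.05. The leading one was COL1A2, the α2 chain of type I collagen, whose probe 6060612 read 6.13 and 6.07 with shCtrl, 9.11 and 9.03 with sh1209 and 10.47 and 10.35 with sh1319 in MIA PaCa-2. This probe was not detected in Capan-1. A second tested probe of COL1A2 is not described here. The 1 probe of COL1A1, the other chain of type I collagen, did not pass the detection filter and was not tested. Of the laminin chains, 5 of 15 probes were higher with sh1209 and 4 with sh1319 in Capan-1, beside 16.8% and 13.7% of all probes past the threshold in either direction, with a median of 0.34 and 0.23 and none lower there by limma, adjusted or unadjusted. In MIA PaCa-2 they were split, 1 higher and 1 lower with sh1209 and 2 and 2 with sh1319. In MIA PaCa-2 the fibroblast marker list, which shares COL3A1 with the collagen chains, ranged from 6.31 to 8.14 in summed level. Its part in the collagen changes was not tested, and its other 3 genes were on no array there.

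Beside ITGB4, the hemidesmosome partners were 4 genes with 10 tested probes, 2 of them of COL17A1. In MIA PaCa-2, 3 of 10 were higher with each hairpin, beside 18.0% and 24.3% of all probes past the threshold in either direction. None passed as lower there, but 1 with sh1209 and 2 with sh1319 were lower at an unadjusted limma p under 0.05. Without background correction 1 passed as lower with sh1319. In Capan-1, 2 were higher with sh1209, beside 16.8% of all probes. With sh1319 in Capan-1 limma passed 0 of 10, where 3 were higher at an unadjusted p under 0.05 and 2 passed with median scaling. COL17A1, the transmembrane collagen of hemidesmosomes, read 8.27 and 8.33 with shCtrl, 10.72 and 10.66 with sh1209 and 10.47 and 10.34 with sh1319 in MIA PaCa-2 at probe 990372. That is a rise of 2.39 ± 0.18 and 2.11 ± 0.18 (SE; limma, adjusted p = 3.21e-06 and 5.47e-06). A second COL17A1 probe, 2120270, rose by 2.00 and 1.43. In Capan-1 probe 990372 changed by -0.16 and 0.14, neither past the threshold.

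Tetraspanins and other lateral partners had 7 and 4 of 15 probes higher and none lower in Capan-1 by limma, adjusted or unadjusted, and 4 higher and 5 lower with sh1209 and 5 higher and 2 lower with sh1319 in MIA PaCa-2. The shares over all probes were 16.8% and 13.7%, and 18.0% and 24.3%. With median scaling the counts for sh1209 in MIA PaCa-2 were 2 higher and 2 lower. CD82, a tetraspanin that holds integrins in membrane microdomains, rose in all 4 pairs at probe 2340768, by 0.73, 1.54, 1.32 and 1.15 (limma, adjusted p = 0.0337, 0.000252, 0.00149 and 0.00412), but the value for sh1209 in MIA PaCa-2 was lost without the filter, in a fit of that line alone (0.65), and without MIA PaCa-2 shCtrl replicate 1 (0.33), sh1209 replicate 1 (0.80) or 2 (0.68) or Capan-1 sh1209 replicate 1 (0.73). The other CD82 probe, 5130136, changed by 0.15 with sh1209 in MIA PaCa-2 (limma, adjusted p = 0.601) and by 0.51 with sh1319 there (limma, adjusted p = 0.0352), which was lost without background correction (0.18), with median scaling (0.52), without the filter, in a fit of that line (0.45) and without MIA PaCa-2 sh1319 replicate 1 (0.39) or shCtrl replicate 2 (0.37), and it rose by 1.05 and 0.93 in Capan-1. PLAUR, the urokinase receptor, rose at probe 360475 in 3 pairs, by 0.60 and 0.65 in MIA PaCa-2, then by 0.84 with sh1209 in Capan-1. Without MIA PaCa-2 shCtrl replicate 2 the first 2 were 0.39 and 0.44 and did not pass, nor did the first without sh1209 replicate 1 (0.49) or with median scaling (0.64). Without background correction the CD82 changes in MIA PaCa-2 were 0.26 and 0.66 and those of PLAUR 0.32, 0.35 and 0.55, all past the threshold. The other 2 PLAUR probes passed with sh1209 in Capan-1 only.

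The remaining lists were mixed, and their counts stand beside shares over all probes of 18.0% and 24.3% in MIA PaCa-2 (sh1209, sh1319), then 16.8% and 13.7% in Capan-1. Activators and inhibitors had 1 higher and 2 lower with sh1209 and 4 and 2 with sh1319 of 17 probes in MIA PaCa-2. In Capan-1, 3 were lower with sh1209, none of them with median scaling, and 2 were higher with sh1319. APBB1IP, an adaptor that brings talin to integrins, rose by 1.14 with sh1319 in MIA PaCa-2 (limma, adjusted p = 0.00181). Adaptors and kinases at the integrin tail had 5 higher and 1 lower, and 8 and 2, of 32 probes in MIA PaCa-2. The Capan-1 counts were 5 and 4, and 6 and 3. With median scaling no adaptor probe was lower in MIA PaCa-2 (3 and 8 higher) or with sh1319 in Capan-1 (6 higher), and with sh1209 there 5 were higher and 2 lower. CAV1, the caveolar protein caveolin-1, rose by 1.63 and 2.94 in MIA PaCa-2 and fell by 1.18 with sh1209 in Capan-1, where sh1319 gave -0.22 (limma, adjusted p = 7.99e-06, 5.07e-08 and 0.000131). DDR2, a collagen receptor kinase that is no integrin, rose by 1.11 with sh1209 in MIA PaCa-2 (limma, adjusted p = 4.73e-05). Probe 2000368 of ITGA3 fell with the same hairpin in the same line, and the list of other collagen or laminin receptors had 3 higher and 1 lower of 16 probes there, 2 lower with sh1319, and 3 higher, then 1 higher and 2 lower, in Capan-1. With median scaling these were 1 and 1, 1 lower, 3 higher, then 1 and 1. ITGAV, an α subunit that pairs with β1 among others, moved in opposite directions with the hairpins in MIA PaCa-2, as it fell by 0.90 with sh1209 (limma, adjusted p = 0.0102) and rose by 1.18 with sh1319 (limma, adjusted p = 0.00130). The fall did not pass without shCtrl replicate 1 (-0.78) or sh1209 replicate 2 (-0.66) of that line. Without background correction the changes of APBB1IP, DDR2 and ITGAV with these hairpins were 0.58, 0.60 and, for the fall of ITGAV, -0.58, all past the threshold. In the list of other β subunits and partners, which holds it, 1 was higher and 1 lower with sh1209 and 2 were higher with sh1319 of 9 probes in MIA PaCa-2. In Capan-1, 1 was higher and 1 lower with sh1209 and 1 was lower with sh1319, where median scaling gave 1 higher with sh1209 and none with sh1319.

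**Figure D5:**
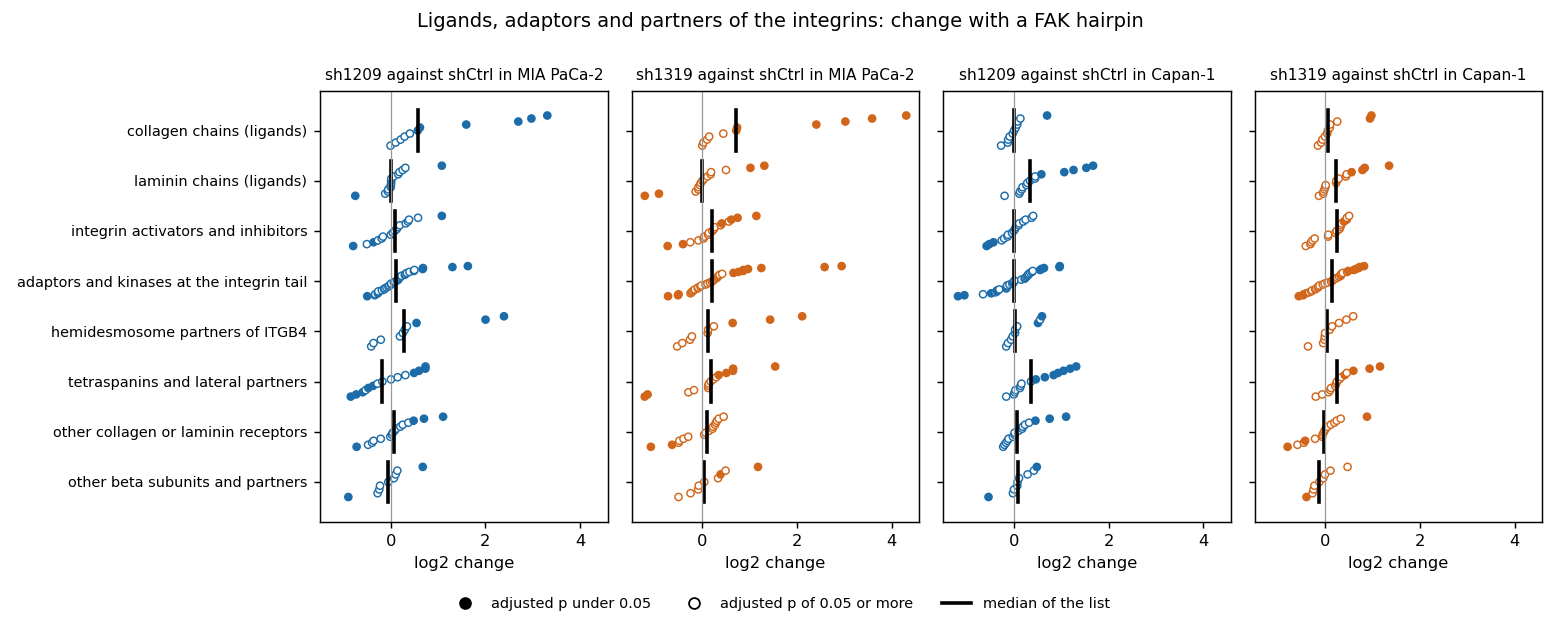
Log2 change with a FAK hairpin against shCtrl for each tested probe of 8 lists around the integrins, 1 panel per hairpin and cell line, filled where the adjusted p was under 0.05, with a bar at the median of each list. Collagen chains reach 4.31 in MIA PaCa-2, and laminin chains lie to the right of 0 mainly in Capan-1.

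Across the 12 arrays, centred within cell lines, the probes most like ITGB1 610452 were those of EYA2 (r = 0.941), GNPAT (0.933) and FEZ1 (0.931). For ITGA2 they were RAP2A (0.924), HNMT (0.919) and LOC649839 (0.914), and for ITGA6 probe 2140678 PIGW (0.907), SAMD8 (0.903) and LOC100132503 (0.902). With 12 arrays of 6 groups on 1 chip and 24207 probes searched, these are descriptions of the ranking. No probe was among the nearest 3 of more than 1 of these integrin probes.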

How the data were processed

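RNA was measured on 12 arrays, 2 in each of 6 groups, all on 1 Illumina HumanHT-12 v4 chip. The authors deposited, for 47320 rows, the mean bead intensity of each probe without normalization and a detection p-value against negative control beads, and GenomeStudio 2011.1 is listed in the submitters' processing notes. A genome build is not given in the sources used here. After 92 control rows were left out, intensities were corrected for background by normexp from the detection p-values (offset 16), quantile-normalized and taken as log2 values. Probes with a detection p under 0.05 on at least 2 arrays were kept. Group means were fitted in limma 3.58.1 (R 4.3.3) over all 12 arrays, with 6 residual degrees of freedom and Benjamini-Hochberg adjustment within each comparison. Files give no read depth, and the number of arrays limits the precision. Alternatives left out the background correction, scaled by medians, dropped the filter or used a stricter one (detection p under 0.01 on 4 arrays), took the replicate number as a block, used the arrays of 1 cell line or the methods' t-test (named there for comparisons of groups in general, not for the arrays), and left out each array in turn. Fits with an array left out or of 1 cell line kept the probes that passed the filter over all 12 arrays. The code was tested on simulated data.

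All probes of the 9 integrin genes and of PTK2 were described. From each list, genes past the threshold in 1 direction in at least 3 of the 4 pairs, with no change of opposite sign in any pair, were named. So were the gene with the largest change past the threshold and the 3 probes most like ITGB1, ITGA2 and ITGA6. The gene so named from 1 list is not reported here. The members and lists were chosen with earlier results of these data known. Promoter sequences are those of RefSeq (GRCh38.p14).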

Additional observations from a re-analysis of the deposited data

Results flagged for a closer look

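The mean change with a FAK hairpin was not the same in MIA PaCa-2 and Capan-1 at 3 integrin probes, by a limma test of that difference over the 12 arrays. ITGB4 probe 3940132 changed by 1.52 in MIA PaCa-2 but 0.07 in Capan-1, a difference of 1.45 (limma, adjusted p = 0.000792). ITGA3 probe 2000368 changed by -0.69 and -0.00, a difference of -0.68 (limma, adjusted p = 0.0299), and only sh1209 lowered it in MIA PaCa-2. ITGB4 probe 4490367 changed by -0.51 and 0.00, a difference of -0.51 (limma, adjusted p = 0.0355), in the direction opposite to the other ITGB4 probe. Probe 4490367 was detected only on the 2 control arrays of MIA PaCa-2 and met the detection filter through them alone. By the same test PTK2 differed by -1.17 at probe 450253 (limma, adjusted p = 0.000213) and by 0.47 at probe 2680750 (limma, adjusted p = 0.152). The part of PTK2 in these 3 differences was not tested. Groups of 2 arrays are too small for a test of single outlying arrays.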

How the results depend on the processing

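No integrin or PTK2 result that passed the threshold in either fit changed direction under any alternative run, and 21 of 40 passing results passed under all of them other than the methods' t-test. ITGA1 with sh1209 in Capan-1 also did so where it was tested, but the stricter filter left it out. Counts of integrin probes past the threshold are given as sh1209 and sh1319 in MIA PaCa-2, then in Capan-1, and were 4, 2, 2 and 2. Median scaling gave 2, 1, 2 and 1, no background correction 5, 4, 6 and 2, no filter 4, 2, 2 and 0 (4 at an unadjusted limma p under 0.05 for the last), a stricter filter 3, 1, 2 and 1, and a fit of 1 cell line 3, 1, 2 and 1. The methods' t-test gave 0 in each after adjustment, with 4, 1, 3 and 1 at an unadjusted p under 0.05. With an array left out the counts were 3 to 5, 1 to 2, 1 to 3 and 0 to 2, the lowest without MIA PaCa-2 sh1319 replicate 1 for the second, without Capan-1 shCtrl replicate 1 for the third and without any of 10 arrays, at 0 or 1, for the fourth. Between control cells of the lines, 12 probes passed, 10 to 13 with an array left out, 9 with median scaling and 6 by the methods' t-test. Between the hairpins in MIA PaCa-2 these were 2, 1 to 3 (1 without sh1209 replicate 1) and 0 by the methods' t-test (2 unadjusted), and in Capan-1 4, 0 to 4 (0 without sh1209 replicate 1, 1 without sh1319 replicate 1), 2 with median scaling and 0 by the methods' t-test (5 unadjusted). The difference of the response between lines passed at 3, 1 to 3 with an array left out (1 without Capan-1 shCtrl replicate 1 or 2 or sh1209 replicate 2), and 1 with median scaling. After normalization, replicate numbers did not pair the arrays (correlation of deviations -0.0525 to 0.160). Before it, the median intensity was higher on replicate 2 in every group. With the replicate number as a block the counts for the 4 hairpin pairs were 4, 2, 2 and 1, and no other count of the integrin probes changed.

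Over all probes, median scaling moved the median change with sh1319 in Capan-1 by 0.109, and the share of calls that were higher from 50.6% to 85.3% there, from 48.4% to 81.7% with sh1209 in Capan-1 and from 50.3% to 66.6% with sh1319 in MIA PaCa-2. The share moved from 50.6% to 34.7% between the hairpins in MIA PaCa-2 and from 50.4% to 31.7% for the difference between lines. All-probe calls with median scaling were 2243, 3846, 2459 and 2270 for the hairpin pairs against 4365, 5887, 4074 and 3322. Dim probes, such as those of ITGA1, ITGA7, ITGA10, ITGA11 and most of ITGB4, are limited by their signal over background.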
